A study of Mus musculus with 2 samples.

Results

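Cajal-Retzius cells are early-born neurons of the marginal zone that secrete reelin, the glycoprotein that guides migrating neurons and shapes dendrites. Most of them die during postnatal development, and in mice some persist longer around the hippocampal fissure than in the neocortex. Here they were single nuclei of mouse hippocampus at postnatal day 19, picked out of single-nucleus RNA sequencing by their transcripts. A nucleus was taken when at least 3 of 6 marker genes (Trp73, Reln, Ndnf, Lhx1, Lhx5, Ebf3) were detected, among them Trp73, Lhx1 or Lhx5. It also had to hold at most 1 unique molecular identifier (UMI, 1 counted RNA molecule) of Gad1 and Gad2 together and none of Aqp4 or Gja1. This rule took 152 of 25060 control nuclei and 231 of the 23043 nuclei labelled knockout, and 133 and 202 remained once called doublets were left out.

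The study compared 2 genotypes. The control library came from Cicflox/flox mice, and the library labelled knockout came from Emx1-Cre; Cicflox/flox littermates, so floxed Cic alleles were shared by all the animals. Each library pooled frozen hippocampal tissue of 3 mice, 2 males and 1 female, and was run once on a droplet platform that reads the 3′ ends of nuclear RNA. With 1 library per genotype there is no replicate, so no p-value or standard error is given, and every interval is a 95% interval for counting error only. The differences below compare these libraries, not the genotypes as populations.

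Cic encodes capicua, a transcriptional repressor that binds short octamers in its target promoters and is relieved by signalling from receptor tyrosine kinases through Ras and ERK. Its best known targets include the ETS factors Etv1, Etv4 and Etv5 and the feedback inhibitors of the Spred, Spry and Dusp families. ATXN1 and ATXN1L are its partner proteins. Emx1 drives Cre in progenitors of the dorsal telencephalon, which give rise to excitatory neurons and glia of the hippocampus, while most hippocampal interneurons come from elsewhere. Which Cajal-Retzius nuclei carried a recombined allele was not read out.

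The libraries held 314453640 and 252995761 UMIs over 25907 and 23207 barcodes, of which 166 barcodes occurred in both after filtering. The nuclei used numbered 21865 and 20531, with medians of 9790 and 8766 UMIs. The share of mitochondrial UMIs was low, and its median over all nuclei was 0.0174% in the control against 0.0327% in the library labelled knockout.

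Cajal-Retzius nuclei gave fewer UMIs than the median nucleus. Their median depth was 5863 UMIs in the control (range 2062 to 43490) against 4980.5 UMIs in the library labelled knockout (range 1840 to 35763). The medians of detected genes were 2497 and 2296. In total they gave 847843 and 1243281 UMIs, and levels below are UMIs per 1000000 of these totals (CPM). Their median mitochondrial shares were 0.0271% and 0.0587%.

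The nuclei were chosen by the detected UMIs of these marker genes, so their values are given as a description. Reln, the secreted ligand, had 8491 UMIs in the control against 10364 in the library labelled knockout, which is 10015 and 8336 CPM. Ndnf, a secreted neurotrophic factor, had 1896 and 1882 UMIs (2236 and 1514 CPM). Trp73, the p53-family factor that marks Cajal-Retzius cells from the cortical hem, was detected in 89.5% and 90.6% of the nuclei. Ebf3 was detected in 91.0% and 80.2%, and the LIM-homeobox genes Lhx1 and Lhx5 in 53.4% and 54.5% and in 21.1% and 25.2%. In the control, 7 nuclei held 3 of the markers, 58 held 4, 56 held 5 and 12 held all 6. In the library labelled knockout these numbers were 17, 87, 78 and 20. Just outside the rule, 8 and 34 nuclei had 2 markers with Trp73, Lhx1 or Lhx5 among them, and their Reln level was 138 and 115 CPM. A further 6 and 13 nuclei had 3 or more markers but none of these 3 genes, with Reln at 8394 and 5202 CPM. Within the limits set by the rule, Gad1 had 4 and 3 UMIs, Gad2 had 2 and 8, and Aqp4 and Gja1 had none. Dropping the Gad and astrocyte limits would have taken 180 and 243 nuclei.

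Genes that the rule did not use also set these nuclei apart in level. Cacna2d2, a calcium channel subunit, stood at 585 CPM in control Cajal-Retzius nuclei, against 92.2 CPM in inhibitory nuclei, 2.77 CPM in CA pyramidal nuclei and 1.34 CPM in dentate granule nuclei of the same library. Nhlh2, a helix-loop-helix factor, stood at 136 CPM, against at most 0.655 CPM in these 3 classes. Slc17a6, the vesicular glutamate transporter 2, stood at 265 CPM, against 3.34 CPM in granule nuclei. Summed over the 26 known Cajal-Retzius genes listed outside the rule, the control level was 1526 CPM. The same sum was 89.0 CPM in granule, 465 CPM in pyramidal and 605 CPM in inhibitory nuclei. Diablo, a mitochondrial protein that antagonises inhibitors of apoptosis, stood at 250 CPM, against 6.21 to 7.79 CPM in the 3 other neuronal classes. Other known genes of these cells were thin: Calb2 had 24 UMIs in the control against 59 in the library labelled knockout, Lmx1a 32 and 47, and Rspo1 0 UMIs in the control.

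**Figure D1:**
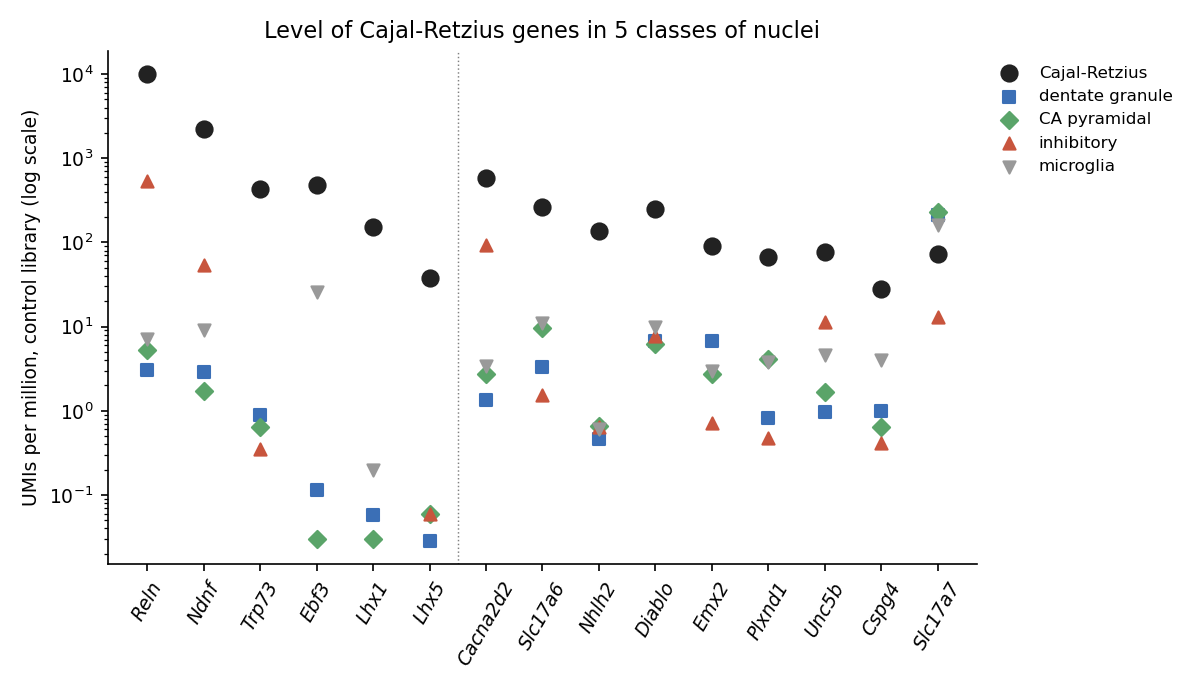
Level of 15 genes (CPM, log axis) in 5 classes of nuclei of the control library, with 1 point per class and classes at 0 not drawn. The 6 genes left of the dotted line chose the Cajal-Retzius nuclei; to its right, Cacna2d2, Slc17a6, Nhlh2 and Diablo, which did not, also have their highest point in Cajal-Retzius nuclei.

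A small number of UMI-rich nuclei stood apart within the set. They held over 2 times the library's median UMIs among Cajal-Retzius nuclei, which is over 11726 UMIs in the control and over 9961 in the library labelled knockout. This limit was chosen after the values were seen. There were 5 such nuclei in the control (3.76%) against 17 in the library labelled knockout (8.42%), and they gave 14.4% and 27.4% of the UMIs. Their median Reln level was 2886 and 1790 CPM, against 11094 and 10004 CPM in the remaining nuclei. Their median Scrublet doublet score was 0.0384 and 0.144, against 0.0229 and 0.00826 in the remaining nuclei. Leaving them out lowered the summed level of 15 excitatory-neuron markers from 375 to 215 CPM in the control and from 410 to 184 CPM labelled knockout. Most of the UMI-rich nuclei labelled knockout had no sex call and enter neither the female nor the male values below, while most of the remaining nuclei had one. None of the UMI-rich nuclei had been called a doublet, and whether they were droplets holding more than 1 nucleus was not tested. Because this small group is larger in 1 library, the counts of genes called and the values of most named genes are also given without it.

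**Figure D2:**
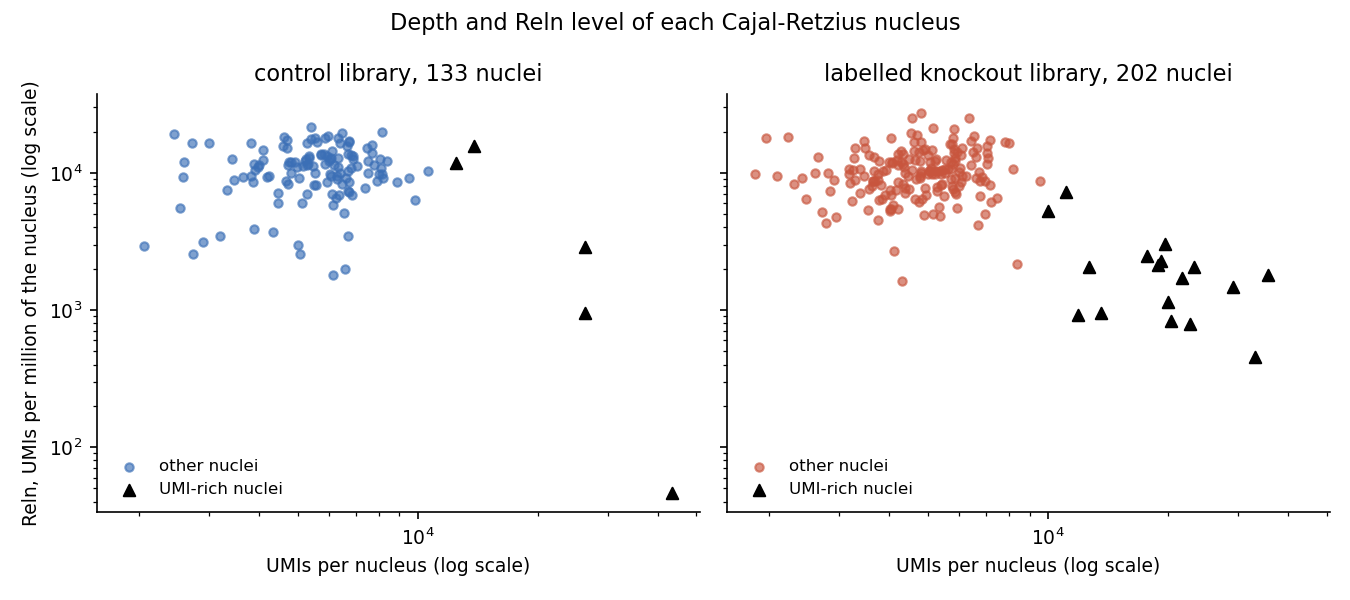
Each point is 1 Cajal-Retzius nucleus, with its UMIs on the horizontal log axis and its Reln level in CPM of that nucleus on the vertical log axis, for the control (133 nuclei, left) and the library labelled knockout (202 nuclei, right). Triangles mark the 5 and 17 UMI-rich nuclei, most of which lie below the main cloud.

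Cajal-Retzius nuclei were a larger share of the library labelled knockout. They were 0.608% of control nuclei (0.510 to 0.720%) and 0.984% of the nuclei labelled knockout (0.853 to 1.13%), and these counting intervals do not overlap. Without the UMI-rich nuclei the shares were 0.585% and 0.901%. By sex chromosome transcripts, 51 control nuclei were female and 48 male, and 66 and 85 in the library labelled knockout, with 34 and 51 uncalled. Among male nuclei the shares were 0.505% (0.373 to 0.669%) and 0.932% (0.745 to 1.15%). Among female nuclei, which came from 1 mouse per library, they were 0.790% (0.589 to 1.04%) and 1.05% (0.813 to 1.33%), and these intervals overlap. A share depends on the number of all other nuclei recovered: granule nuclei, for example, numbered 2865 in the control against 1534 in the library labelled knockout. More Cajal-Retzius cells and a better recovery of their nuclei cannot be told apart in such a share.

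Cic itself gave few molecules. Cajal-Retzius nuclei had 18 Cic UMIs in the control against 27 in the library labelled knockout, 21.2 and 21.7 CPM, a log2 ratio of 0.02 (−0.88 to 0.98). With UMI-rich nuclei left out there were 18 and 21 UMIs. The labels do not say which exons are floxed, so 3′ tags may come from outside the deleted stretch and this count checks nothing about the label. In granule and pyramidal nuclei the Cic log2 ratio was 0.44 (0.19 to 0.69) and 0.82 (0.64 to 0.99). Of the partner genes, Atxn1 had 203 and 580 UMIs (239 and 467 CPM), a log2 ratio of 0.96 (0.73 to 1.20) that was 0.81 without the UMI-rich nuclei. Atxn1l had 13 and 21 UMIs, for a log2 ratio of 0.12 (−0.93 to 1.26).

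Genes were called by size, when the levels differed by at least 2-fold and the higher library had at least 50 UMIs and 10 CPM. Log2 ratios are the library labelled knockout over the control, with 0.5 UMI added to each sum. Of 4096 genes with enough UMIs, 130 (3.17%) were at least 2-fold higher in the library labelled knockout and 6 (0.146%) at least 2-fold lower. Without the UMI-rich nuclei, 46 (1.39%) of 3308 were higher and 13 (0.393%) lower. Of the 130 higher genes, 51 still had enough UMIs for a call there, 103 had a ratio above 0 and 62 a counting interval above 0.

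CIC targets were among the genes with the largest ratios. Of the 15 targets listed, 9 had at least 20 UMIs in both libraries together and 7 had enough for a call, and 6 of these 7 were at least 2-fold higher in the library labelled knockout. The median log2 ratio of the 9 was 1.71, against 0.00 over all 9601 genes with as many UMIs. Without the UMI-rich nuclei it was 2.56 over 8 targets, and 3 of the 4 with enough UMIs passed. Of the 9 targets 8 were higher and 1 lower, where all genes split into 49.7% and 50.3%. The counting interval lay above 0 for 6 of the 9, against 7.29% of all genes (5.7% lay below 0), and for 6 of the 8 without the UMI-rich nuclei, against 5.12% (5.36% below 0). Etv4, Etv5, Shc3 and Spred3 reached 20 UMIs only through the library labelled knockout, so their direction was largely fixed by this minimum, and these tallies are a description. The targets were listed with earlier results of these data known.

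Etv4, an ETS factor of the PEA3 group, had no UMI in the 133 control nuclei and 139 UMIs in the 202 nuclei labelled knockout. Against a floor of 3 UMIs in the control it was at least 31.6-fold higher. The counting interval of its log2 ratio started lower than this bound, at 4.66, and had no upper limit. The UMI-rich nuclei did not carry this difference: without them the UMIs were 0 and 110. It was present in both sexes, with 0 and 50 UMIs in female nuclei and 0 and 53 UMIs in male nuclei. Etv5, its close relative, had 4 and 70 UMIs, for a log2 ratio of 3.42 (2.16 to 5.49), and 2 and 43 UMIs without the UMI-rich nuclei (3.81). Etv1, the remaining member of the group, had 28 and 63 UMIs, for a log2 ratio of 0.60 (−0.05 to 1.31). Etv1 had 6 and 8 UMIs without the UMI-rich nuclei.

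Shc3, a neuronal adaptor that links receptor tyrosine kinases to Ras, had 6 and 153 UMIs. Its log2 ratio was 4.01 (2.96 to 5.59), and 4.66 without the UMI-rich nuclei, where the UMIs were 2 and 78. The 3 Spred genes encode membrane proteins that hold back Ras and Raf. Spred1 had 38 and 184 UMIs, for a log2 ratio of 1.71 (1.21 to 2.27) that was 1.87 without the UMI-rich nuclei. Spred2 had 74 and 227 UMIs, for a log2 ratio of 1.06 (0.68 to 1.46). Spred3 had 5 and 56 UMIs, for a log2 ratio of 2.81 (1.63 to 4.61), and 3.25 without them on 3 and 41 UMIs. All 3 Spred genes were thus higher by more than counting error, and Spred2, at the limit of 2-fold, fell short of it without the UMI-rich nuclei (0.95), in female nuclei alone (0.63), thinned to 3000 UMIs (0.84) and with the called doublets kept (0.69).

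The remaining targets gave other values. Spry2, a Sprouty inhibitor of the same pathway, had 24 and 22 UMIs, for a log2 ratio of −0.68 (−1.58 to 0.22). Ccnd2, cyclin D2, had 23 and 48 UMIs, for a log2 ratio of 0.49 (−0.24 to 1.29). Both intervals include 0. Too few UMIs for a ratio were found for Spry1 (2 and 2), Spry4 (0 and 6), Dusp4 (3 and 13), Dusp5 (0 and 2), Dusp6 (1 and 3) and Ccnd1 (6 and 11).

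**Figure D3:**
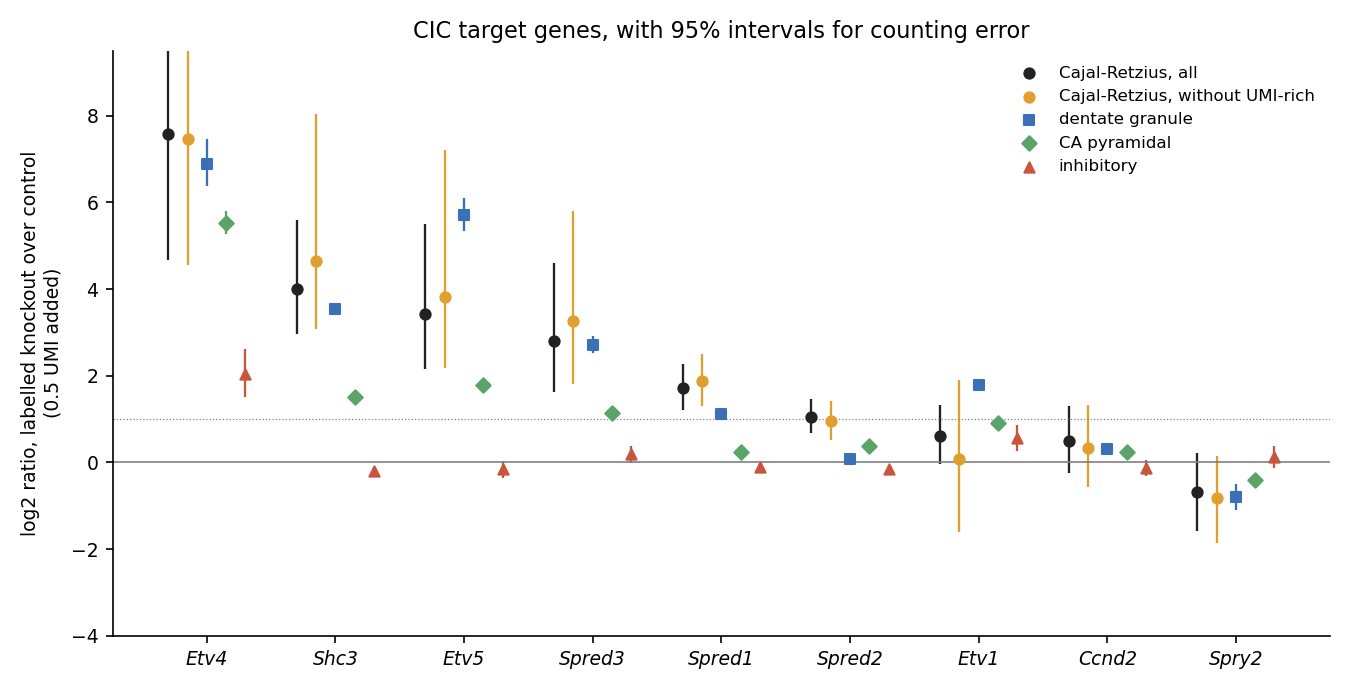
Log2 ratio of the library labelled knockout over the control (0.5 UMI added) for the 9 CIC targets with at least 20 UMIs in Cajal-Retzius nuclei, with 95% counting intervals as vertical lines, for Cajal-Retzius nuclei with and without UMI-rich nuclei and for 3 other neuronal classes. Lines that reach the top have no upper limit, and the Etv4 points of Cajal-Retzius nuclei depend on the 0.5 UMI added because the control held 0; the dotted line marks 2-fold.

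The difference in Etv4 was spread over many nuclei. At least 1 UMI was found in 87 of 202 nuclei labelled knockout (43.1%, 36.1 to 50.2%) and in 0 of 133 control nuclei, which by the floor of 3 counts allows a share of up to 2.26%. No Cajal-Retzius nucleus held more than 5 of its UMIs. Without the UMI-rich nuclei the shares were 0% and 40.5%. RNA released from other cells can also place UMIs in a droplet, so microglia, which do not descend from Emx1 progenitors, were read the same way. With all UMIs, 1.70% of 1234 control microglia (median 2395.5 UMIs) and 10.7% of 1100 microglia labelled knockout (median 1955 UMIs) had an Etv4 UMI, and 1 of the latter held 13. When each nucleus was thinned to 1500 UMIs, which left out 174 and 286 microglia and no Cajal-Retzius nucleus, the shares labelled knockout were 17.3% (12.4 to 23.3%) in Cajal-Retzius nuclei and 5.77% (4.27 to 7.60%) in microglia. Thinned to 3000 UMIs, they were 28.3% (22.0 to 35.4%) of 187 Cajal-Retzius nuclei and 16.4% (10.9 to 23.3%) of the 152 deepest microglia, and these intervals overlap. The thinned control shares in Cajal-Retzius nuclei were 0% at both depths.

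In the library labelled knockout, Cajal-Retzius nuclei had 139 UMIs of Etv4 and 68 of Slc17a7, the vesicular glutamate transporter 1 of granule and pyramidal neurons, while microglia had 189 and 443. The Cajal-Retzius counts were 110 and 33 without the UMI-rich nuclei. How many of the Etv4 UMIs in Cajal-Retzius nuclei came from RNA of other cells was not tested. For Shc3 the shares of nuclei with a UMI were 3.01% in the control and 33.2% (26.7 to 40.1%) labelled knockout, against 5.35% and 8.55% in microglia. Thinned to 3000 UMIs the Shc3 share labelled knockout was 19.8%, which is not above the 24.3% in the 152 deepest microglia. Thinned to 1500 UMIs it was 9.41% (5.76 to 14.3%), against 4.30% (3.01 to 5.93%) in microglia, and 14.1% in a separate draw from the 185 nuclei that were not UMI-rich.

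Detection in single nuclei was counted over the 6 targets called at least 2-fold higher above. A difference between the libraries was therefore largely fixed by this choice, and the shares are a description. Of the 6 (Etv4, Etv5, Shc3, Spred1, Spred2, Spred3), at least 1 was detected in 41.4% of control nuclei (32.9 to 50.2%) and in 85.6% of nuclei labelled knockout (80.0 to 90.2%). Thinned to 3000 UMIs these shares were 31.5% and 77.5%. At that depth microglia gave 49.6% and 77.6%, so the share with any target was not above that of the 152 deepest microglia. With all UMIs, 30 and 13 of 1100 microglia labelled knockout held 5 and 6 of the 6 targets. The 15 excitatory markers summed to 1093 CPM in control microglia and 763 CPM in those labelled knockout. Whether droplets holding more than 1 nucleus were among these microglia was not tested. At 1500 UMIs the shares were 19.5% and 57.9% (50.8 to 64.8%) in Cajal-Retzius nuclei and 31.1% and 46.3% (42.8 to 49.8%) in microglia. With all UMIs, the control had 2 nuclei with more than 2 of the 6 targets, both UMI-rich, while 41, 24, 14 and 5 nuclei labelled knockout had 3, 4, 5 and 6 of them. Leaving out the UMI-rich nuclei, 40, 19, 7 and 1 nuclei labelled knockout had 3, 4, 5 and 6 targets. Thinned to 3000 UMIs, 29, 6 and 1 of 187 Cajal-Retzius nuclei labelled knockout had 3, 4 and 5 targets, against 20, 5 and 0 of 152 microglia. Thinned to 1500 UMIs, 1 and 2 of 202 had 3 and 4 targets, against 9 and 0 of 814 microglia. Each thinning is 1 random draw, and a separate draw at 1500 UMIs from the 185 nuclei that were not UMI-rich gave 7, 1 and 1 nuclei with 3, 4 and 5 targets, so numbers this small shift with the draw.

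**Figure D4:**
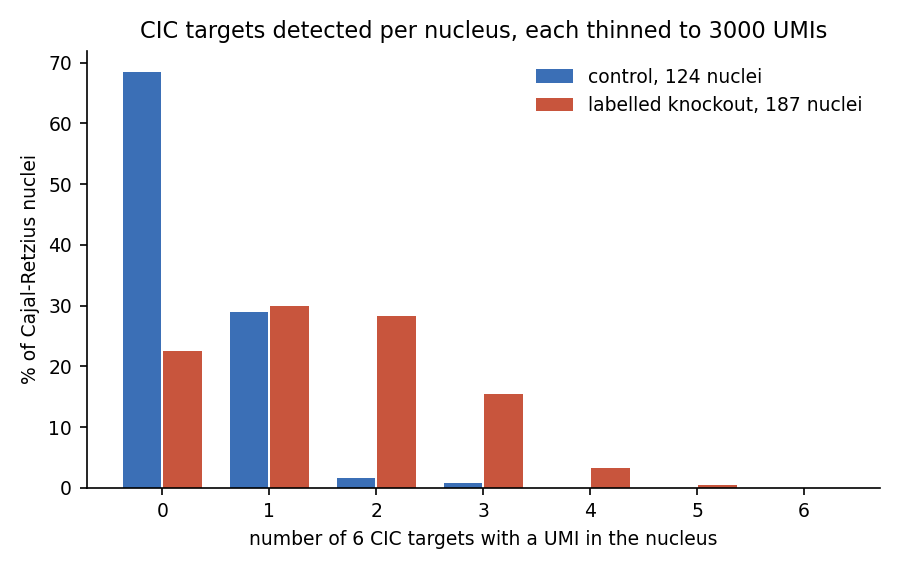
Bars give the percent of Cajal-Retzius nuclei (vertical axis, from 0) in which 0 to 6 of the 6 CIC targets had a UMI (horizontal axis), after thinning each nucleus to 3000 UMIs, for 124 control nuclei and 187 nuclei labelled knockout. No target was found in 68.5% of the control nuclei and in 22.5% of the nuclei labelled knockout. The 6 targets are those called at least 2-fold higher in these same data.

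The octamers that CIC binds, TGAATGAA and TGAATGGA, were searched on both strands in RefSeq promoter windows of 300 bases (250 before to 50 after the start, build GRCm38.p6). They were present in 811 of 32851 windows (2.47%). A window was given for 3210 of the genes with enough UMIs in Cajal-Retzius nuclei, and 57 of these (1.78%) held an octamer. Among the genes at least 2-fold higher, it was 5 of 84 (5.95%), and among those higher both with and without the UMI-rich nuclei it was 0 of 13. Of the 5, Spred3, Bcl2, Nsun6 and Unc13c had too few UMIs for a call without the UMI-rich nuclei. Their log2 ratios there were 3.25, 1.91, 1.06 and 0.96, and that of Arid5b was 0.80. Of the 9 CIC targets with a window, 1 held an octamer. The 5 stretches are shown 5′ to 3′ on the gene's strand because they are the only higher genes with a match, and capitals mark the octamer or its reverse complement.
Spred3, minus strand of chr7:29168639-29168668, octamer at −10: cttgatttttgTGAATGAAatgctccttgt
Bcl2, minus strand of chr1:106714390-106714419, octamer at −118: cttctttttttTGAATGAAcggtgacgtac
Nsun6, minus strand of chr2:15054874-15054903, octamer at −20: attcttaattcTGAATGGAattgataggga
Unc13c, minus strand of chr9:73969163-73969192, reverse complement at −144: tggcatccacaTCCATTCAtttccccagca
Arid5b, minus strand of chr10:68278751-68278780, reverse complement at −43: acctgatgcaaTCCATTCAagccaacaagt
Nsun6, Unc13c and Arid5b are named because of this match, after their values were seen. Nsun6, an RNA methyltransferase, had 17 and 63 UMIs, or 17 and 45 without the UMI-rich nuclei. Unc13c, a synaptic vesicle priming factor, had 23 and 89 UMIs, or 20 and 49 without them, and Arid5b, a DNA-binding chromatin factor, 28 and 87, or 26 and 57. A match describes these letters only and is not evidence of binding.

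Several genes outside the target list had ratios as large as those of the targets. The noncoding 9630014M24Rik had 2 UMIs in the control and 283 labelled knockout, a log2 ratio of 6.27 (4.73 to 9.65), and was detected in 0.752% and 58.4% of the nuclei. Its UMIs were 0 and 199 without the UMI-rich nuclei. Fgf1, a ligand of the FGF receptors, had 0 and 63 UMIs, at least 14.3-fold higher against the same floor, and 0 and 48 UMIs without the UMI-rich nuclei. The counting interval of the Fgf1 log2 ratio in all nuclei started lower than this bound, at 3.50. Gm5820 lies opposite Fgf1 on the other strand and had 1 and 71 UMIs. These 3 genes and Etv4 had almost no control signal in Cajal-Retzius nuclei.

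Further genes had a ratio of at least 2-fold in both sexes, which for Iqcj rests on only 0 and 2 UMIs in male nuclei. Htr2c, a serotonin receptor, had 26 and 203 UMIs, for a log2 ratio of 2.39 (1.82 to 3.06), and 1.45 without the UMI-rich nuclei. Ubash3b, a phosphatase that acts on receptor-linked kinases, had 14 and 96 UMIs, for a log2 ratio of 2.18 (1.41 to 3.15), and 1.89 without them. Mcc, a gene first found mutated in colorectal cancer, had 20 and 119 UMIs, for a log2 ratio of 1.99 (1.33 to 2.78), and 1.98 without them. For Gpc6, a glypican, 78.4% of the UMIs labelled knockout came from the UMI-rich nuclei, with a log2 ratio of 3.89 in all nuclei and 1.93 without them. Iqcj is the extreme case: 98.8% of its UMIs labelled knockout came from the UMI-rich nuclei, and its counts of 11 and 81 UMIs became 0 and 1. The noncoding 9530026P05Rik, which lies opposite Adamts9, had 7 and 117 UMIs, 83.8% of the latter in UMI-rich nuclei.

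Leaving out mitochondrial genes, 23 genes were at least 2-fold higher both with and without the UMI-rich nuclei. They comprise Etv4, Shc3, Spred1, 9630014M24Rik, Htr2c, Ubash3b and Mcc above, Sema5a, Nrcam, Gabrb1 and Mbp below, and 12 more that are named because they met both settings, after their values were seen. Of these, Rimbp2, an active-zone scaffold, had 24 and 123 UMIs, for a log2 ratio of 1.78 (1.17 to 2.50), and 2.73 without the UMI-rich nuclei. Arhgap26, a GTPase-activating protein, had 64 and 317 UMIs, for a log2 ratio of 1.75 (1.36 to 2.17), and 2.00 without them. Clvs1 was detected in 50.4% and 80.7% of the nuclei, with 137 and 450 UMIs, or 119 and 358 without the UMI-rich nuclei. The other 9 were Prkg1, Nxph1, Rgs20, Tenm1, Fndc1, Tnr, Tuft1, Smoc2 and 2900052L18Rik, whose log2 ratios ran from 1.05 to 1.54 in all nuclei. Of the 23 genes, 22 had the same sign in female and male nuclei and 20 were at least 2-fold higher in both. In addition 4 mitochondrial genes were higher in both settings, and their ratios were also positive in the other neurons: mt-Co1 had a log2 ratio of 1.46 in Cajal-Retzius nuclei, 0.82 in granule, 0.95 in pyramidal and 0.93 in inhibitory nuclei.

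Genes called lower were few, by a rule that favoured higher calls. Of these 6, 3 were also at least 2-fold lower without the UMI-rich nuclei. Fhod3, a formin that assembles actin filaments, had 216 UMIs in the control and 135 labelled knockout, a log2 ratio of −1.23 (−1.55 to −0.91), and −1.16 without them. It was detected in 66.2% and 46.0% of the nuclei, and its ratios in granule, pyramidal and inhibitory nuclei were −0.32, −0.38 and −0.17. Mapk4, an atypical MAP kinase, had 62 and 43 UMIs, for a log2 ratio of −1.08 (−1.68 to −0.50). Nxpe4 had 65 and 44 UMIs, for a log2 ratio of −1.11 (−1.70 to −0.54). The noncoding 4921539H07Rik had 62 and 11 UMIs, but 6 and 3 without the UMI-rich nuclei. Its log2 ratio was also negative in granule, pyramidal and inhibitory nuclei (−1.94, −2.82 and −3.05). Of these 3 classes only pyramidal nuclei held many of its UMIs, with 22691 in the control and 2780 labelled knockout. Granule nuclei had 128 and 16 UMIs, and inhibitory nuclei 78 and 8. Whether the granule and inhibitory UMIs came from RNA of other cells was not tested. Fhod3, Mapk4, Nxpe4, 4921539H07Rik, Mcc, Ubash3b, Sema5a, Spred3 and, among genes below, Bcl2, Fgfr1, Gabrb1, Nrp2, Unc5c, Sema6d, Grm7 and Vcan each overlap a gene on the opposite strand in the annotation, and Erbb4 and Grik2 overlap one on their own strand. Whether the counting used strand is not given in the sources used here. How many of their reads, like those of Fgf1 and Gm5820, came from the partner was not tested.

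**Figure D5:**
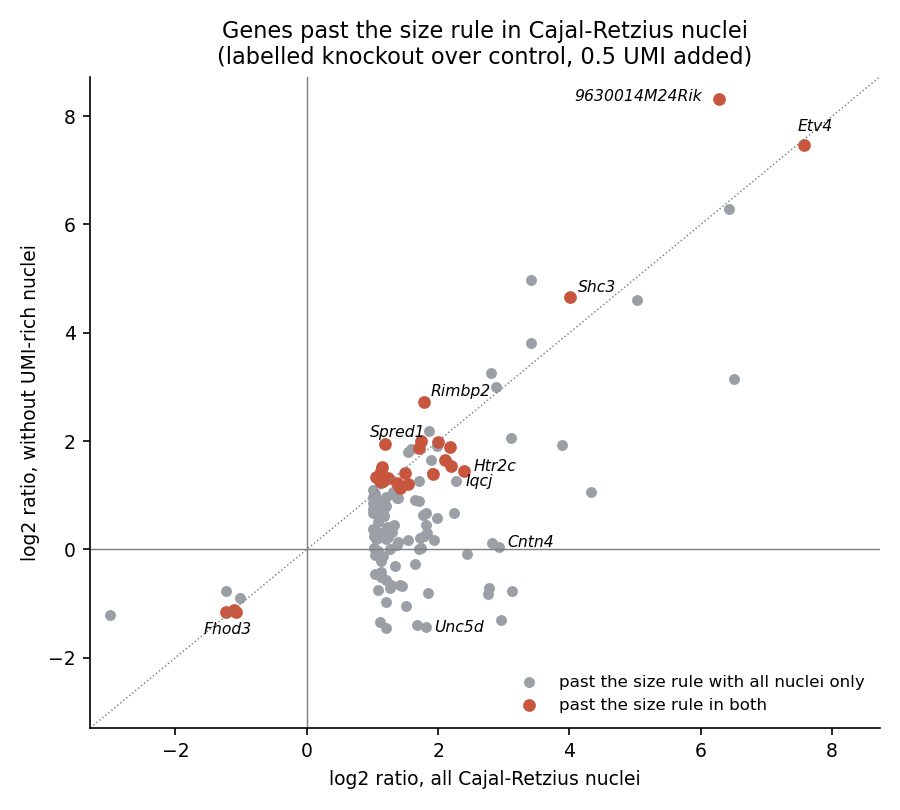
Each of the 132 points is a gene past the size rule in Cajal-Retzius nuclei, sex-linked and mitochondrial genes left out, with its log2 ratio (labelled knockout over control, 0.5 UMI added) in all nuclei on the horizontal axis and without UMI-rich nuclei on the vertical axis. The 26 red points passed in both settings, while points right of the vertical line and below the horizontal line at 0, such as Unc5d, changed sign; ratios of genes with 0 UMIs in the control depend on the 0.5 UMI added.

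The other gene sets of Cajal-Retzius biology were read against the shares of 3.17% higher and 0.146% lower. Without the UMI-rich nuclei the shares over all genes were 1.39% and 0.393%. Sema5a, Unc5d, Nrp2, Grm8, Bcl2, Fgf1, Fgfr1, Erbb4, Mbp and Vcan reached 50 UMIs only through the library labelled knockout. Their direction was largely fixed by this minimum, so the tallies of their sets are a description. In the reelin pathway 0 of 11 genes with enough UMIs passed in either direction. The log2 ratio of Reln was −0.26 (−0.31 to −0.22) in all nuclei and −0.04 (−0.08 to 0.01) without the UMI-rich nuclei, and it was 0.06 in male nuclei alone. Of the reelin receptors, Vldlr had 16 and 28 UMIs, for a log2 ratio of 0.24 (−0.68 to 1.24), while Lrp8 had 38 and 95 UMIs, for a log2 ratio of 0.76 (0.21 to 1.35). Dab1, the adaptor phosphorylated below these receptors, had 576 and 1402 UMIs (679 and 1128 CPM), a log2 ratio of 0.73 (0.59 to 0.87), and 0.50 without the UMI-rich nuclei. Reln helped to choose the nuclei, so its values are a description only. Over the alternatives the log2 ratio ran from 0.13 to 1.29 for Lrp8 (0.87 without the UMI-rich nuclei) and from 0.16 to 1.02 for Dab1, so both passed 2-fold in some settings. Pafah1b1, which encodes LIS1, stood at 380 and 388 CPM.

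Of the other known Cajal-Retzius genes, 1 of 8 with enough UMIs passed, namely Spock1, a proteoglycan, whose log2 ratio of 1.06 (0.70 to 1.44) became 0.31 without the UMI-rich nuclei. Slc17a6 was lower by less than 2-fold, with 225 and 199 UMIs (265 and 160 CPM), a log2 ratio of −0.73 (−1.01 to −0.45), and −0.62 without them. Cacna2d2 stood at 585 and 491 CPM and Nhlh2 at 136 and 149 CPM, with the UMI-rich nuclei included. Of the 16 with at least 20 UMIs, 2 had a counting interval above 0 and 3 below it, against 7.29% and 5.7% of all genes.

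Guidance and migration genes had 6 of 32 members at least 2-fold higher, and 3 of 24 without the UMI-rich nuclei. Sema5a, a transmembrane semaphorin, had 30 and 192 UMIs, for a log2 ratio of 2.11 (1.57 to 2.73), and 1.64 without them. It was detected in 12.8% and 38.6% of the nuclei. With the called doublets kept, its log2 ratio was 0.32, and that of Nrcam 0.28. Nrcam, an adhesion molecule, had 128 and 413 UMIs, for a log2 ratio of 1.13 (0.85 to 1.44), and 1.45 without them. Cxcl12, the chemokine that holds Cajal-Retzius cells at the pial surface during development, had 42 and 124 UMIs and lay at the limit of 2-fold, with a log2 ratio of 1.00 (0.49 to 1.55), and 1.20 without them. The netrin receptor Unc5d went the other way: its log2 ratio of 1.82 (1.19 to 2.55) became −1.42, with 20 and 9 UMIs left. Nrp2, Unc5c and Sema6d likewise dropped from 1.38, 1.23 and 1.09 to 0.13, 0.35 and 0.21. Robo2, a Slit receptor and the most abundant of this set, had 3282 and 3556 UMIs with the UMI-rich nuclei included. Its log2 ratio was −0.44 (−0.51 to −0.37). The median of the list was 0.33 in all nuclei and 0.02 without the UMI-rich nuclei, against 0.00 over all genes.

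Among glutamate receptors and transporters 4 of 17 were at least 2-fold higher, and 0 of 12 without the UMI-rich nuclei. Grm8 and Grm7, presynaptic metabotropic receptors, had log2 ratios of 1.98 and 1.30 that became 0.59 and 0.32. The kainate receptor gene Grik2 went from 1.04 to −0.10. Gria1, Gria4 and Gria2, the most abundant AMPA receptor subunits here, had log2 ratios of −0.09, 0.02 and −0.11.

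For GABA, glycine and chloride genes 1 of 10 was at least 2-fold higher, and 1 of 9 without the UMI-rich nuclei. That gene was Gabrb1, a GABA-A receptor subunit, with 112 and 622 UMIs, for a log2 ratio of 1.92 (1.63 to 2.22). Although 81.0% of its UMIs labelled knockout came from UMI-rich nuclei, its log2 ratio without them was 1.38, on 36 and 118 UMIs. It was 0.65 with the called doublets kept. Slc12a2, the chloride importer NKCC1, had 30 and 37 UMIs. Slc12a5, the exporter KCC2, had 19 and 33 UMIs, and the intervals of both ratios include 0 (−0.98 to 0.50 and −0.61 to 1.14).

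Cell death and survival genes had 1 of 8 at least 2-fold higher, and 0 of 6 without the UMI-rich nuclei. The gene was Bcl2, an inhibitor of apoptosis whose promoter stretch is printed above. It had 12 and 72 UMIs, for a log2 ratio of 1.98 (1.14 to 3.05), and was detected in 7.52% and 18.3% of the nuclei. Outside the UMI-rich nuclei it had 9 and 44 UMIs, too few for a call, and a log2 ratio of 1.91. It was also higher in granule nuclei (2.63) and pyramidal nuclei (1.33), and not in inhibitory nuclei (−0.11). Diablo had 212 and 224 UMIs, for a log2 ratio of −0.47 (−0.75 to −0.20), with the UMI-rich nuclei included.

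In the receptor tyrosine kinase, Ras and ERK set 2 of 20 were at least 2-fold higher, Fgf1 and Fgfr1, and without the UMI-rich nuclei 0 of 15 were higher and 1 lower. Fgfr1, a receptor for FGF1, had 17 and 77 UMIs, for a log2 ratio of 1.59 (0.86 to 2.48), and 1.85 without them on 9 and 42 UMIs. With the called doublets kept, the log2 ratio of Fgfr1 was 0.37. The 1 lower was the neurotrophin receptor Ntrk3, at 0.44 in all nuclei and −1.02 without the UMI-rich nuclei. Under the minimum of UMIs, and named after their values were seen, the receptors Alk (3 and 42 UMIs) and Egfr (8 and 42 UMIs) had log2 ratios of 3.05 (1.61 to 5.59) and 1.77 (0.73 to 3.14), which were 3.18 and 2.53 without the UMI-rich nuclei. The most abundant members differed less. Ntrk2, the receptor for BDNF, had 902 and 1158 UMIs, for a log2 ratio of −0.19, and Fgf14, an intracellular FGF that binds sodium channels, had 739 and 1565 UMIs and 0.53, or −0.04 without the UMI-rich nuclei.

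No gene of the excitability set passed (0 of 24, and 0 of 21 without the UMI-rich nuclei), nor the 1 member of the activity and handling set with enough UMIs. Kcnh7 and Kcnb2, potassium channel genes with the highest counts of this set, had 6361 and 7408 UMIs and 3789 and 4785 UMIs, log2 ratios of −0.33 and −0.22. Kcnq5 had 2274 and 4369 UMIs, for a log2 ratio of 0.39 (0.32 to 0.46).

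Markers of other cells were present at low levels, and their part in the differences above was not tested. The 15 excitatory markers summed to 375 CPM in the control against 410 CPM in the library labelled knockout, and to 215 and 184 CPM without the UMI-rich nuclei. Dsp was at 0 UMIs in the control Cajal-Retzius nuclei. The 12 inhibitory markers summed to 177 and 194 CPM, and 1 of 3, Erbb4, passed (1.23, and 0.23 without the UMI-rich nuclei). Dlx2 and Pvalb were at 0 in the Cajal-Retzius nuclei of both libraries, and Lhx6 and Vip in those of the control. The 6 astrocyte markers summed to 243 and 280 CPM, with Aldh1l1 at 0 in the control Cajal-Retzius nuclei and 0 of 2 passing. The 6 oligodendrocyte markers summed to 307 and 333 CPM, where Mbp passed (2.20, but −0.27 in male nuclei). The 6 markers of oligodendrocyte precursors summed to 71.9 and 113 CPM, and Vcan was the 1 of 1 that passed (1.29, and 1.02 on too few UMIs for a call without the UMI-rich nuclei). The 6 microglia markers summed to 94.4 and 41.8 CPM and the 8 vascular markers to 20.1 and 44.2 CPM. Cldn5 and Col1a2 were at 0 in the Cajal-Retzius nuclei of both libraries. Pdgfrb was at 0 in those of the control and Flt1 at 0 in those labelled knockout. The 4 choroid and ependymal markers summed to 1.18 and 0 CPM, with Ttr, Foxj1 and Folr1 at 0 in the Cajal-Retzius nuclei of both libraries. Once UMI-rich nuclei were left out, the sums labelled knockout were below the control for excitatory, inhibitory (190 and 162 CPM), astrocyte (256 and 217 CPM), oligodendrocyte (332 and 298 CPM) and microglia markers (105 and 48.8 CPM), and above it for precursor (74.4 and 116 CPM) and vascular markers (20.7 and 57.6 CPM).

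The same sums were made in dentate granule, CA pyramidal and inhibitory nuclei, set by their own marker rules. At least 2-fold higher were 178 genes (2.09%) in granule nuclei, and 72 (0.847%) were lower there, against 129 (1.54%) and 31 (0.37%) in pyramidal nuclei and 6 (0.0682%) and 1 (0.0114%) in inhibitory nuclei. Depth differs between these classes, so their counts are not set against that of Cajal-Retzius nuclei. Over the CIC targets the median was 1.55 in granule nuclei (6 of 9 higher), 0.37 in pyramidal nuclei (4 of 9) and 0.11 in inhibitory nuclei (0 of 8). In microglia, where 59 genes (0.615%) were at least 2-fold higher and 46 (0.479%) lower, it was 0.36 (4 of 10). These medians cover different members, since each class had its own targets with at least 20 UMIs.

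Single targets differed between the classes in value. Etv4 reached 112 CPM in Cajal-Retzius nuclei labelled knockout, 106 CPM in granule, 81.3 CPM in pyramidal and 8.79 CPM in inhibitory nuclei, and 54.5 CPM in microglia, where the control had 4.21 CPM. Spred1 had a log2 ratio of 1.71 in Cajal-Retzius nuclei, 1.12 in granule, 0.24 in pyramidal and −0.10 in inhibitory nuclei. Spred2 stood at 1.06 in Cajal-Retzius nuclei, against 0.07, 0.37 and −0.14. Etv5 showed another order, with 3.42 in Cajal-Retzius nuclei, 5.71 in granule, 1.79 in pyramidal and −0.16 in inhibitory nuclei. With 1 library per genotype, none of these differences between classes could be tested.

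Most of the higher genes of Cajal-Retzius nuclei did not pass in granule or pyramidal nuclei, and neither did most of all genes. The share that passed there was larger than that over all genes, by the counts below. Leaving out 4 mitochondrial genes, 126 genes were higher in Cajal-Retzius nuclei. Of these, 23 were also at least 2-fold higher in granule nuclei (of 123 with enough UMIs there) and 18 in pyramidal nuclei (of 123). In inhibitory nuclei 0 were (of 121), and in microglia 14 (of 124). Of all 3943 genes with enough UMIs in both Cajal-Retzius and granule nuclei, 79 were at least 2-fold higher in granule nuclei, and these include the 23. Of 3977 such genes 54 were higher in pyramidal nuclei, which include the 18, and of 4001 such genes 23 in microglia, which include the 14. In inhibitory nuclei 0 of 3988 such genes were higher, so the 0 says nothing about the Cajal-Retzius genes. Mitochondrial and sex-linked genes are left out of these counts, and of the former mt-Nd4 and mt-Atp6 were at least 2-fold higher in inhibitory nuclei too (1.02 each). Of the 23 genes higher with and without the UMI-rich nuclei, 6 were higher in granule nuclei and 6 in pyramidal nuclei. Mcc was at least 2-fold lower in granule nuclei and stood at 0.55 in pyramidal nuclei. Rimbp2, with 1.78 in Cajal-Retzius nuclei, stood at −0.15, 0.00 and 0.02 in granule, pyramidal and inhibitory nuclei. Clvs1, with 1.16, stood at 0.10, 0.10 and −0.06.

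Of the marker genes that chose the nuclei, Reln and Trp73 had higher levels labelled knockout in granule and pyramidal nuclei, unlike in Cajal-Retzius nuclei. Cajal-Retzius nuclei were chosen by these genes, and nuclei that met their rule were left out of the other classes. The contrast is therefore a description only. Reln stood at 3.06 CPM in control granule nuclei and 24.2 CPM in those labelled knockout, and at 5.23 and 14.6 CPM in pyramidal nuclei, against 537 and 555 CPM in inhibitory nuclei. Trp73 stood at 0.886 and 5.97 CPM in granule nuclei and at 0.640 and 1.27 CPM in pyramidal nuclei. Of the other Cajal-Retzius genes, 5 were higher and 7 lower in granule nuclei (median log2 ratio −0.40), and 10 were higher and 6 lower in pyramidal nuclei (median 0.15). Over all genes, 8993 were higher and 7698 lower in granule nuclei (median 0.03). In pyramidal nuclei 12523 were higher and 6623 lower (median 0.10), so the pyramidal count is near that split.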

How the data were processed

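The authors deposited raw UMI counts per gene and barcode for 2 single-nucleus libraries, aligned with Cell Ranger 8.0.1 to mm39, per the submitters' processing notes. Nuclei with under 500 genes or over 5% mitochondrial UMIs were removed. Doublets were called in each library with Scrublet (scanpy 1.11.5, expected rate 0.1), which marked 12.7% and 10.9% of nuclei, and left out. Of the Cajal-Retzius nuclei, 19 and 29 were called doublets, with medians of 17340 and 12565 UMIs. Counts were summed per class and library and scaled to the class total. Intervals are exact (Clopper-Pearson, 95%) and cover counting error only, with a floor of 3 UMIs for a count of 0. Nuclei were female from 2 Xist UMIs without any of 4 Y-linked genes, and male from 1 Y-linked UMI without Xist. List medians use members whose UMIs in the libraries sum to 20 or more.

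Named are the rule's genes, CIC and its partners, CIC targets, up to 14 genes per direction at least 2-fold changed in both sexes, up to 6 called members per list, the reelin ligand, receptors and adaptor, and up to 4 abundant members per list. Calb2, Lmx1a, Rspo1, Slc17a7, Cxcl12, Ntrk3, Slc12a2, Slc12a5 and the genes so described in the text fall outside this rule and were chosen after their values were seen. Some genes that the rule names are not reported here. The members and lists were chosen with earlier results of these data known. The calculations were tested on simulated data. Computations used Python 3.11.15, numpy 2.4.6, scipy 1.17.1 and pandas 2.3.3. Of 33696 gene identifiers, 31961 (94.9%) were in the annotation used to look for overlapping genes. RefSeq promoter windows are of another build than the counts.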

Additional observations from a re-analysis of the deposited data

Results flagged for a closer look

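Among genes past the size rule, Cntn4, an adhesion molecule of the contactin family, had counting intervals on opposite sides of 0 in the sexes. Its log2 ratio (labelled knockout over control) was −1.39 (−2.61 to −0.33) in female Cajal-Retzius nuclei, from 23 and 11 UMIs, and 2.52 (1.03 to 5.07) in male nuclei, from 3 and 30 UMIs. The difference between the sexes was not tested. In all nuclei Cntn4 had 28 and 318 UMIs, a log2 ratio of 2.93, and 1 nucleus labelled knockout alone held 63 of these UMIs. UMI-rich nuclei held 91.5% of the UMIs labelled knockout, and without them Cntn4 had 21 and 27 UMIs, for a log2 ratio of 0.04 (−0.83 to 0.94).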

How the results depend on the processing

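The 130 genes at least 2-fold higher became 81 in female nuclei alone, 37 in male nuclei alone, 43 after thinning to 3000 UMIs, 324 with a minimum of 20 UMIs and none on CPM, and 46 without UMI-rich nuclei. The 6 lower genes became 11 in female nuclei, 73 with the minimum of 20 UMIs, 16 without the Gad and astrocyte limits and 13 without UMI-rich nuclei. The 23 higher genes shared with granule nuclei became 9, 4, 8, 36 and 7 in female nuclei, in male nuclei, thinned, with the minimum of 20 UMIs and without UMI-rich nuclei. The 15 members of the other lists past 2-fold became 8 with called doublets kept, 6 in male nuclei, 5 thinned, 23 with the minimum of 20 UMIs and 5 without UMI-rich nuclei. The CIC target median of 1.71 became 3.67 in male nuclei, 2.70 thinned and 2.56 without UMI-rich nuclei. The share with an Etv4 UMI, 43.1%, became 16.8% for at least 2 UMIs, 28.3% thinned to 3000 and 17.3% thinned to 1500 UMIs. The control share of Cajal-Retzius nuclei, 0.608%, was 0.790% of female nuclei, 0.505% of male nuclei and 0.823% without the Gad and astrocyte limits, and the share labelled knockout, 0.984%, was 1.18% without these limits. The causes were not tested, except that male, female and thinned sums hold fewer UMIs. The Reln log2 ratio turned from −0.26 to 0.0602 in male nuclei. Median-of-ratios and TMM scaling moved all log2 ratios by 0.039 and 0.010. The settings without UMI-rich nuclei, without the Gad and astrocyte limits and at 1500 UMIs were added after the data were seen. No paired analysis was possible because each group is 1 pooled library.

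With 133 and 202 nuclei, genes under about 20 UMIs gave no usable ratio. Genotype, pool and library cannot be told apart.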
